A study of Mus musculus with 24 samples.

Results

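Genes for making, moving and sensing cholesterol were compared between old and young cerebellum. The tissue came from males of the inbred mouse strain C57BL/6J, aged 79 weeks in the old group and 7 weeks in the young group. The set is a list of 32 genes chosen by function: 18 enzymes of synthesis, 7 genes of uptake, efflux and handling, and 7 regulators. Of the 32, 31 were matched by symbol to 1 of the 37991 gene identifiers in the count tables, and all 31 passed the low-count filter that left 15292 genes. Hmgcs1, which encodes the synthase that makes the precursor of mevalonate, had no matching identifier and has no value here. Messenger RNA was sequenced from 2 libraries at 79 weeks and 2 at 7 weeks, and the labels name no mutation and no treatment for either age. Whether replicates are different animals is not stated, so every p-value reflects variation among these 4 libraries and could be technical only. The remaining 20 of the 24 samples are genomic and were not analysed here.

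Cells build cholesterol from acetyl-CoA. A mevalonate arm makes isoprenoid units and joins them into squalene, and a sterol arm closes squalene into rings and trims the product to cholesterol. Lipoproteins of the blood hardly cross the blood-brain barrier, so the brain makes its own cholesterol. Glia release it on particles that carry apolipoprotein E, and neurons take it up or turn the excess into a hydroxylated form that leaves the brain. The SREBP transcription factors switch on synthesis when sterols are scarce, under the control of their escort Scap and the Insig anchors, and the liver X receptors, LXRs, switch on efflux when oxysterols are plentiful.

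Reads assigned to genes numbered 18901921 and 22826993 in the 79-week libraries, against 16367656 and 21124608 in the 7-week libraries. Markers of cerebellar cells were present in every library. Here rose and fell mean an adjusted p under 0.05 in the edgeR test described below. Over all tested genes 4.17% were called higher and 4.68% lower. Of 8 granule neuron markers 6 fell and 0 rose, with sums of 4638 and 4426 CPM (reads of a gene relative to the TMM-scaled library total) at 79 weeks, against 5883 and 5748 CPM at 7 weeks. Of 8 Purkinje cell markers 6 fell and 0 rose, with sums of 8460 and 8735 CPM at 79 weeks, against 10540 and 10420 CPM at 7 weeks. Summed levels of 11 choroid plexus markers were 5410 and 42.4 CPM at 79 weeks, against 17.95 and 33.1 CPM at 7 weeks, so 79-week replicate 1 stood apart. Of 12 markers of myelinating oligodendrocytes 6 fell and 0 rose, with sums of 1914 and 2671 CPM at 79 weeks, against 3487 and 3303 CPM at 7 weeks. Of 10 microglial markers 7 rose and 0 fell, with sums of 212 and 256 CPM at 79 weeks, against 113 and 125 CPM at 7 weeks. Of 10 markers of astrocytes and Bergmann glia 2 rose and 1 fell, with sums of 4022 and 4334 CPM at 79 weeks, against 4348 and 4682 CPM at 7 weeks. Of 8 markers of oligodendrocyte precursors and premyelinating cells 2 fell and 0 rose. Of 3 tested ependymal markers 2 rose and 0 fell, and of 9 endothelial and pericyte markers 0 rose and 0 fell. In such bulk tissue, fewer cells of a type and less RNA per cell cannot be told apart.

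Of the 31 cholesterol genes with counts, 4 were called between the ages. The lipid carrier gene Apoe and the regulators Srebf1 and Nr1h3 rose, the sterol-arm gene Sqle fell, and 27 of the 31 were not called. The test was edgeR's quasi-likelihood test with a Benjamini-Hochberg adjusted p under 0.05 over all genes. The 3 genes that rose are set against a background of 4.17% of all tested genes called higher, and the single fall against 4.68% called lower. In either direction 8.84% of all tested genes were called. At an unadjusted p under 0.05, 8 members passed, 5 higher and 3 lower, where 26.7% of all tested genes passed, 13.2% higher and 13.5% lower. For the list as a whole, 8 of 31 is near that background, and nothing is read from its share of calls. The 95% interval of the fitted fold change lay within 1.5-fold of no change for 27 of the 31 members and for 62.2% of all tested genes.

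**Figure D1:**
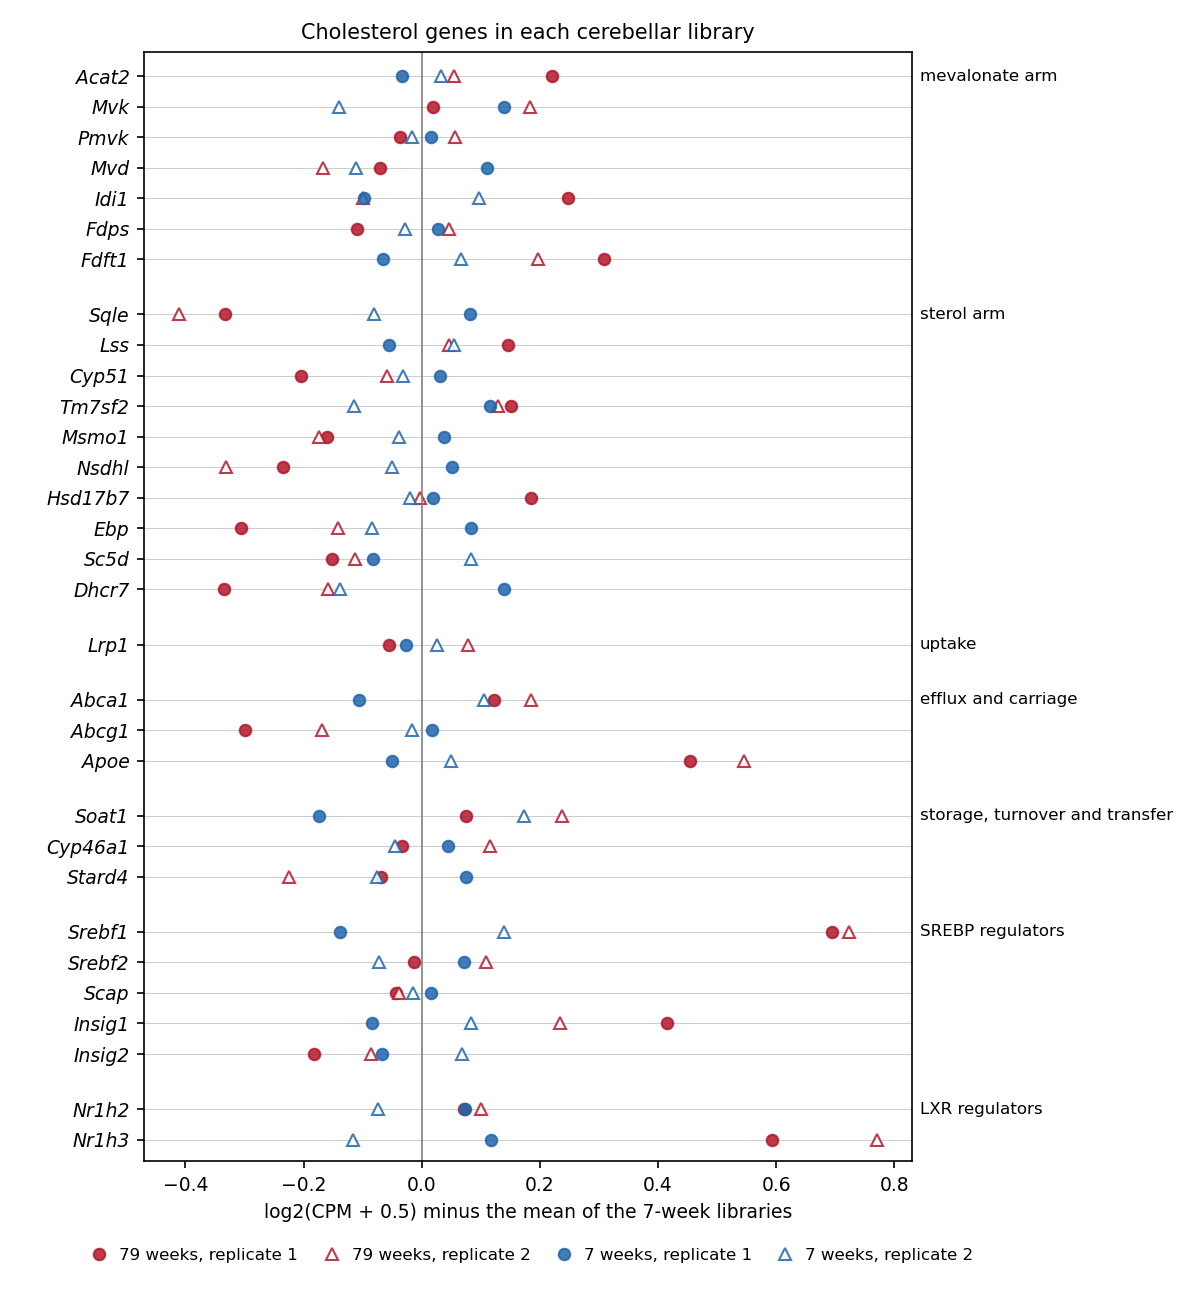
Level of each of the 31 cholesterol genes in each library, as log2(CPM + 0.5) minus the mean of the 7-week libraries, with genes grouped by role down the page. Apoe, Srebf1 and Nr1h3 stand to the right in both 79-week libraries, and 7 of the 10 sterol-arm genes have both 79-week libraries to the left of both 7-week libraries.

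CCAAT and GC boxes were frequent at the promoters of the synthesis enzymes, and the choice of the list did not use them. Of the 27 members with a promoter in the RefSeq table of build GRCm38.p6, 15 are synthesis enzymes, and Sqle, Fdft1, Fdps, Abcg1 and Stard4 are named only. Within the 250 bases before a listed start, 14 of these 15 held a CCAAT box, searched as CCAAT on both strands, against 6 of 12 other members and 37.5% of all 27025 genes in the table. A GC box, searched as GGGCGG on both strands, was present in 14 of the 15, against 8 of 12 other members and 35.4% of all genes. The E-box CACGTG was in 3 of 15 synthesis enzymes, 3 of 12 other members and 6.86% of all genes. The GC box and the E-box were thus also more frequent in the other members than in all genes. The 27025 genes were not limited to those tested here or matched in base content, so these shares are description only. These are letter matches and not binding sites, and a gene with several listed starts was counted once if any start held the match. The sterol-arm windows are shown because this arm holds the called fall and most of the lower values described next. The gene that fell, Sqle, has no listed promoter, and Lss, Tm7sf2 and Hsd17b7 below were not lower. Hmgcs1, Mvk, Pmvk, Mvd and Idi1 of the mevalonate arm, which held no called gene, had such a match too. Each gives, of the CCAAT matches with 15 searched bases on either side, the one nearest a listed start. Matches closer to the start than 15 bases were left out. The windows read 5′ to 3′ along the gene's strand, with the match in capitals. It reads ATTGG where it lies on the opposite strand.
Lss, chr10:76531528-76531562, plus strand: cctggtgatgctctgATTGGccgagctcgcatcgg
Cyp51, chr5:4104707-4104741, minus strand: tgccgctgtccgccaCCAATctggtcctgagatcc
Tm7sf2, chr19:6067878-6067912, minus strand: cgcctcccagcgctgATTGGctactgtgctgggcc
Msmo1, chr8:64733614-64733648, minus strand: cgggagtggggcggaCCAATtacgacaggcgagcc
Nsdhl, chrX:72918486-72918520, plus strand: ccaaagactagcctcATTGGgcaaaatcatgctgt
Hsd17b7, chr1:169969259-169969293, minus strand: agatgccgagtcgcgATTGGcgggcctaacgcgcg
Ebp, chrX:8193548-8193582, minus strand: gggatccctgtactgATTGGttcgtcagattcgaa
Sc5d, chr9:42264305-42264339, minus strand: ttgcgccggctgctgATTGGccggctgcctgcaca
Dhcr7, chr7:143830150-143830184, plus strand: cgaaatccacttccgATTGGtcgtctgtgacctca
Between 15 and 68 bases lie from the capitals to the start. A sterol regulatory element was searched only as TCACNCCAC on both strands, so other spellings and sites beyond the 250 bases were not looked for. It was found at 1 of 15 synthesis enzymes and 0 of 12 other members, against 1.22% of all genes. That member is Hmgcs1, whose 250 bases are shown for this match, with the element, 3 CCAAT boxes and 2 GC boxes in capitals.
Hmgcs1, chr13:119690101-119690350, plus strand: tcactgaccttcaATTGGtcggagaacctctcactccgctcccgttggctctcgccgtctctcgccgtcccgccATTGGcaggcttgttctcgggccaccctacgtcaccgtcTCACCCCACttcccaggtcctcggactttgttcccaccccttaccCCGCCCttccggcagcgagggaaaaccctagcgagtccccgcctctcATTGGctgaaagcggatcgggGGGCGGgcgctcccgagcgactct
The last pattern, 2 copies of GGTCA with any 4 bases between them, was searched on both strands. It was found at none of the 27 members, where 0.0518% of all genes had one. An LXR element is 2 copies of AGGTCA with 4 bases between them. Its GGTCA letters thus lie further apart than the pattern allows, so LXR elements themselves were not searched for.

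**Figure D2:**
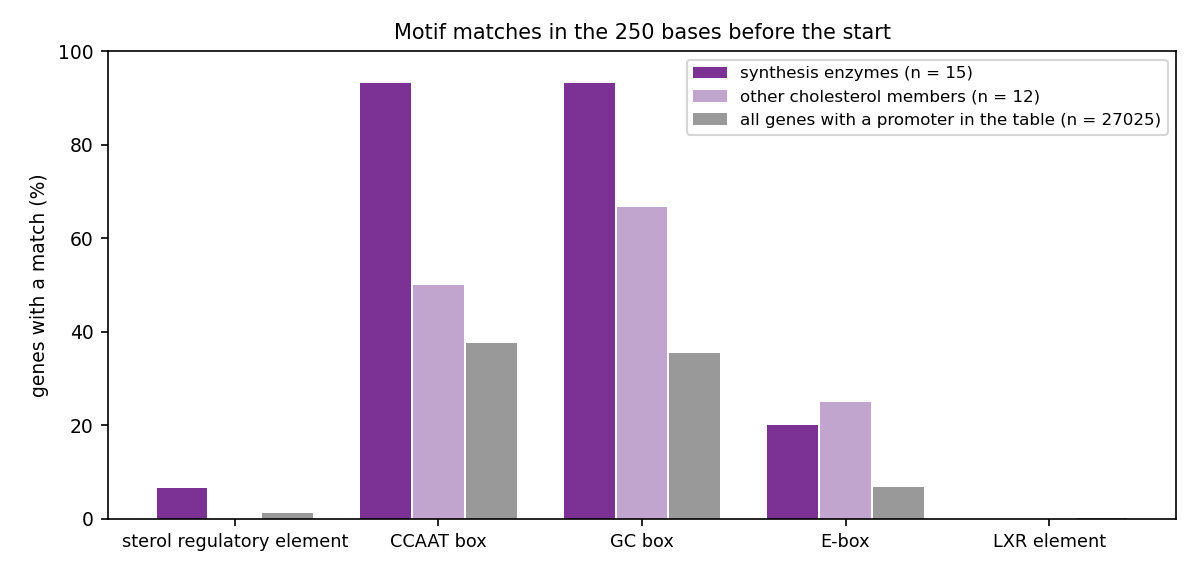
Percent of genes with at least 1 match to each motif in the 250 bases before a listed start, for 15 synthesis enzymes, 12 other cholesterol members and all 27025 genes in the RefSeq promoter table. The CCAAT box and the GC box are each in 93.3% of the synthesis enzymes, and the sterol regulatory element is in 6.67%. The pattern labelled LXR element does not have the spacing of that element.

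In the sterol arm, values at 79 weeks were mostly below those at 7 weeks. Of its 10 genes 1 fell, 0 rose and 9 were not called, and the ages did not overlap for 8, with 7 lower and 1 higher. Among the 7 lower, the gap between ages was smaller than the spread within either age for Dhcr7, Ebp, Cyp51 and Sc5d. Over all tested genes 28.7% were lower and 29.1% higher without overlap, and 57.7% had no overlap in either direction. The arm's median log2 fold change was -0.15 with all 4 libraries, against 0.01 over all tested genes, and -0.13 without 79-week replicate 1. Relative to the 7-week mean, its median gene stood at -0.18 and -0.13 log2 units in the 79-week libraries and at 0.04 and -0.04 in the 7-week libraries. The summed markers of myelinating oligodendrocytes, granule neurons and Purkinje cells were also lower at 79 weeks, as given above, and the part of any of these cell types in the sterol-arm values was not tested.

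Sqle encodes squalene epoxidase, which opens the sterol arm by oxidising squalene. It had 28.5 and 27.0 CPM at 79 weeks, against 38.2 and 34.1 CPM at 7 weeks. Both 79-week libraries lay below both 7-week libraries. Sqle fell by 0.38 on the log2 scale (SE 0.09, adjusted p = 0.0465), with a 95% interval from -0.59 to -0.16. The call sits at the threshold. It was lost in DESeq2 (adjusted p = 0.071), limma-voom (0.0518), and with upper-quartile scaling (0.0509) or library size alone (0.0719). It was also lost without 79-week replicate 2 (adjusted p = 0.0527), 7-week replicate 1 (0.252) or 7-week replicate 2 (0.0932), but it held in edgeR without 79-week replicate 1 (0.0215), whose choroid plexus markers stood apart. DESeq2 did not call Sqle with that library left out (adjusted p = 0.433), nor with any other left out.

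Nsdhl encodes a dehydrogenase that helps strip methyl groups from the sterol ring. It had 13.2 and 12.3 CPM at 79 weeks, against 16.1 and 15.01 CPM at 7 weeks. Msmo1, the oxidase that acts before it, had 35.9 and 35.6 CPM at 79 weeks, against 41.2 and 39.1 CPM at 7 weeks. The ages did not overlap for either gene, and neither was called (adjusted p = 0.152 for Nsdhl and 0.213 for Msmo1). Ebp, which shifts a ring double bond, averaged 28.0 ± 2.28 CPM at 79 weeks and 32.8 ± 2.75 CPM at 7 weeks (SD, n = 2 each). Dhcr7, the reductase of a last step, had 21.9 and 24.8 CPM at 79 weeks, against 30.6 and 25.1 CPM at 7 weeks. Its nearest libraries of opposite age were thus 24.8 and 25.1 CPM, a gap smaller than the spread within either age. Cyp51, the lanosterol demethylase, averaged 49.6 ± 3.60 CPM at 79 weeks and 54.3 ± 1.68 CPM at 7 weeks. Sc5d, a sterol desaturase, averaged 59.3 ± 1.12 CPM at 79 weeks and 65.2 ± 5.36 CPM at 7 weeks. The nearest 79-week and 7-week libraries were 29.6 and 30.9 CPM for Ebp and 52.1 and 53.1 CPM for Cyp51. For Sc5d they were 60.1 and 61.4 CPM. For these genes too the gap was smaller than the spread within either age. None of the 6 genes from Nsdhl to Sc5d passed the adjusted threshold, and their log2 fold changes ran from -0.29 for Nsdhl to -0.13 for Cyp51.

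The other 3 sterol-arm genes stood slightly above the 7-week mean. Lss, which closes squalene epoxide into lanosterol, averaged 53.5 ± 2.61 CPM at 79 weeks and 50.0 ± 2.74 CPM at 7 weeks, and the ages overlapped. Tm7sf2, a sterol reductase, had 21.3 and 20.96 CPM at 79 weeks, against 20.8 and 17.6 CPM at 7 weeks. Its ages did not overlap, but by a gap far smaller than the 7-week spread (adjusted p = 0.445). Hsd17b7, a reductase that completes removal of a methyl group, averaged 20.4 ± 1.91 CPM at 79 weeks and 19.1 ± 0.36 CPM at 7 weeks, and the ages overlapped.

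The mevalonate arm showed no called change. Of its 7 genes with counts 0 rose, 0 fell and 7 were not called, and each 95% interval lay within 1.5-fold of no change. DESeq2 and limma-voom called 0 of them as well, and 1, Fdft1, had an unadjusted p under 0.05 in edgeR. Its median log2 fold change was 0.08, against -0.15 in the sterol arm, and this difference in medians was not tested. With single libraries left out, the mevalonate arm's median ran from -0.0072 (without 7-week replicate 2) to 0.056 (without 79-week replicate 1), so its sign is not settled. Fdft1, the squalene synthase that ends the arm, stood furthest from 0, with 45.5 and 42.0 CPM at 79 weeks, against 34.96 and 38.4 CPM at 7 weeks. Its ages did not overlap, and it was not called (log2 fold change 0.25, SE 0.09, adjusted p = 0.112). Squalene synthase and squalene epoxidase, the consecutive enzymes around squalene, thus had values on opposite sides of 0, of which only that of Sqle was called. In the RefSeq annotation Fdft1 overlaps the protease gene Ctsb, and reads ambiguous between genes are not in these counts. Ctsb averaged 583 ± 8.26 CPM at 79 weeks and 568 ± 13.8 CPM at 7 weeks.

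Acat2, the thiolase that joins acetyl-CoA units, had 18.8 and 16.7 CPM at 79 weeks, against 15.7 and 16.5 CPM at 7 weeks. The ages did not overlap, and Acat2 was not called (adjusted p = 0.452). Its near-identical copy Acat3 averaged 1.71 ± 0.218 CPM at 79 weeks and 1.598 ± 0.674 CPM at 7 weeks. Reads that match both copies are not in these counts, and how many there were was not measured, so the values of both genes are uncertain. The ages overlapped for the other 5. Mvk, mevalonate kinase, averaged 18.1 ± 1.49 CPM at 79 weeks and 16.9 ± 2.38 CPM at 7 weeks. Pmvk, the next kinase, averaged 28.0 ± 1.29 CPM at 79 weeks and 27.8 ± 0.454 CPM at 7 weeks. Mvd, the decarboxylase after it, averaged 20.2 ± 0.979 CPM at 79 weeks and 22.0 ± 2.45 CPM at 7 weeks. Idi1, which interconverts the isoprenoid units, had 13.98 and 10.9 CPM at 79 weeks, against 10.9 and 12.6 CPM at 7 weeks, so its 79-week libraries spanned those at 7 weeks. Fdps, which joins the units into farnesyl diphosphate, averaged 26.6 ± 2.07 CPM at 79 weeks and 27.1 ± 0.76 CPM at 7 weeks. The signs of Mvk, Pmvk, Idi1 and Fdps turned when some single libraries were left out, and that of Fdps also when libraries were scaled by size alone.

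**Figure D3:**
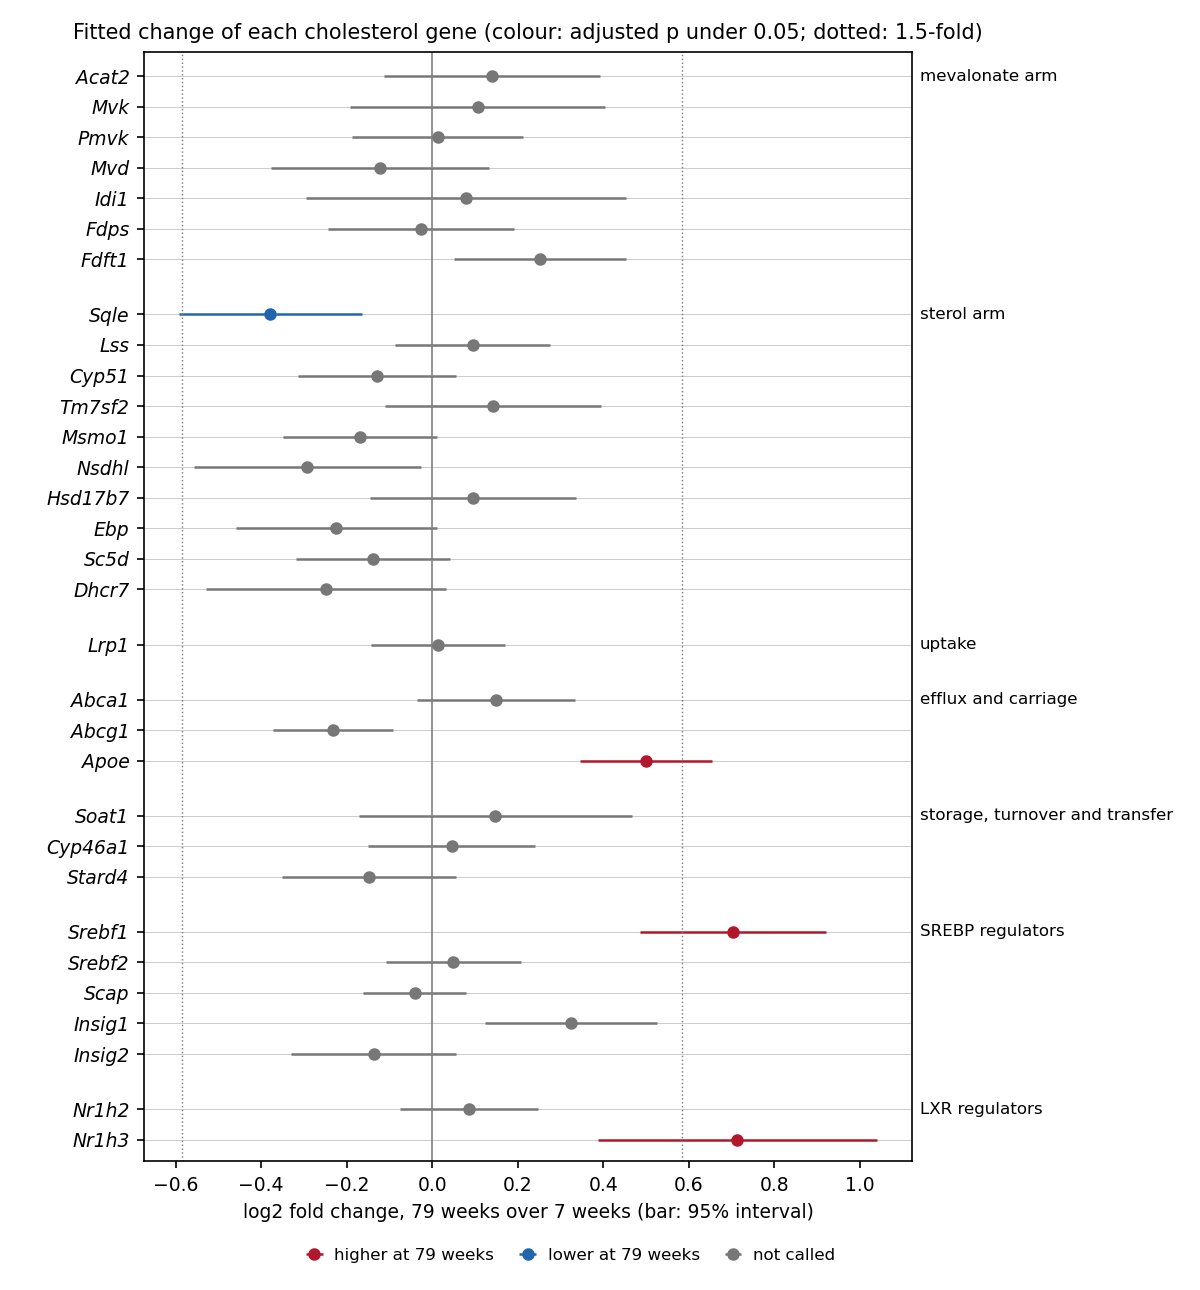
Fitted log2 fold change, 79 weeks over 7 weeks, of each of the 31 cholesterol genes with its 95% interval, grouped by role; colour marks an adjusted p under 0.05 and dotted lines mark 1.5-fold. Srebf1, Nr1h3 and Apoe lie to the right at 0.70, 0.71 and 0.50, Sqle lies to the left at -0.38, and the intervals of 27 members stay between the dotted lines.

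Apoe, the main lipid carrier of the brain, made by astrocytes and by activated microglia, rose. It had 1453 and 1548 CPM at 79 weeks, against 1024 and 1097 CPM at 7 weeks. The ages were clearly apart, and the spread within each age was under the gap between them. The rise was 1.41-fold (log2 fold change 0.50, SE 0.07, adjusted p = 0.00903), with a 95% interval from 1.27-fold to 1.57-fold. Without 79-week replicate 1 the log2 fold change was 0.55 (adjusted p = 2.19e-05) and without 79-week replicate 2 it was 0.45 (adjusted p = 0.000192). The call was lost in edgeR without 7-week replicate 1 (0.45 on the log2 scale, adjusted p = 0.126), where 0 genes of all were called and 2610 had an unadjusted p under 0.05, and without 7-week replicate 2 (0.55, adjusted p = 0.0599), where 175 were called. DESeq2 called Apoe with each library left out, with adjusted p-values up to 1.99e-05. Microglial markers rose as given above. Of the 10 markers of astrocytes and Bergmann glia, Gfap and Aldh1l1 rose (log2 fold changes 0.66 and 0.34), Slc1a3 fell (-0.25) and 7 were not called. The part of either cell type in the rise of Apoe was not tested. The 250 bases before the first listed start of Apoe are shown as the promoter of a member that rose. They held none of the 5 letter patterns searched and so carry no capitals.
Apoe, chr7:19699189-19699438, minus strand: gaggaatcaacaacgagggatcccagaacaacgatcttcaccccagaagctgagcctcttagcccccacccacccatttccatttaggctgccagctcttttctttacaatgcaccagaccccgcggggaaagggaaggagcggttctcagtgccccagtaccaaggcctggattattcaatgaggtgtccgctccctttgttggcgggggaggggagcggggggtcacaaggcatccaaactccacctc

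Abca1 and Abcg1 are the cholesterol exporters of the list. Abca1, which loads cholesterol onto lipid-poor apolipoproteins, had 91.2 and 95.2 CPM at 79 weeks, against 77.8 and 90.1 CPM at 7 weeks. The ages did not overlap, though 7-week replicate 2 came close to the 79-week level, and Abca1 was not called (log2 fold change 0.15, SE 0.08, adjusted p = 0.274). Abcg1, which exports cholesterol to lipidated particles, had 115 and 126 CPM at 79 weeks, against 143 and 140 CPM at 7 weeks. Both 79-week libraries were lower, and Abcg1 missed the threshold (log2 fold change -0.23, SE 0.06, adjusted p = 0.0552). It was called lower with robust dispersion estimates (adjusted p = 0.0342), with no low-count filter (0.00364) and with the crossed block of replicates (0.0296), as it was without 79-week replicate 2 (adjusted p = 0.0139) but not without 79-week replicate 1 (-0.17 on the log2 scale, adjusted p = 0.233). Within each library, where no scaling enters, the ratio of Abca1 to Abcg1 counts was 0.793 and 0.756 at 79 weeks, against 0.543 and 0.644 at 7 weeks.

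Uptake and handling genes were not called. Lrp1, a receptor that takes up particles carrying apolipoprotein E, had 1088 and 1194 CPM at 79 weeks, against 1110 and 1151 CPM at 7 weeks. The 79-week libraries spanned those at 7 weeks, and the 95% interval ran from 0.905-fold to 1.12-fold. Cyp46a1, the neuronal hydroxylase that prepares cholesterol for export from the brain, averaged 46.9 ± 3.47 CPM at 79 weeks and 45.5 ± 2.03 CPM at 7 weeks, with an interval from 0.902-fold to 1.18-fold. Soat1, which esterifies cholesterol for storage, had 18.4 and 20.6 CPM at 79 weeks, against 15.4 and 19.7 CPM at 7 weeks. Stard4, a cytosolic sterol carrier, averaged 50.8 ± 3.93 CPM at 79 weeks and 56.3 ± 4.16 CPM at 7 weeks. The ages overlapped for each of these 4 genes.

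Of the 5 SREBP regulators Srebf1 was the one called. Srebf1 encodes SREBP-1, whose isoforms start at separate first exons and mainly drive fatty acid synthesis, and counts per gene do not separate the isoforms. It had 83.5 and 85.2 CPM at 79 weeks, against 46.7 and 56.6 CPM at 7 weeks. The 79-week libraries were close together and well above both 7-week libraries, which differed more between themselves. Srebf1 rose 1.63-fold, or 0.70 on the log2 scale (SE 0.09, adjusted p = 0.00903), with a 95% interval from 1.40-fold to 1.90-fold. The log2 fold change ran from 0.57 without 7-week replicate 1, where edgeR did not call it (adjusted p = 0.0976), to 0.85 without 7-week replicate 2 (adjusted p = 0.0356). DESeq2 called it with each library left out, with adjusted p-values up to 0.03. In the RefSeq annotation Srebf1 overlaps Rai1, which averaged 129 ± 2.57 CPM at 79 weeks and 115 ± 2.61 CPM at 7 weeks and was not called (adjusted p = 0.0888). Before the second of 3 listed starts of Srebf1 lay 2 GC boxes, and before the third 1 CCAAT box and 2 GC boxes. Which start gave the reads that rose was not measured. The 250 bases before the first listed start held 1 CCAAT box, in capitals, and are shown as a promoter of a member that rose.
Srebf1, chr11:60222582-60222831, minus strand: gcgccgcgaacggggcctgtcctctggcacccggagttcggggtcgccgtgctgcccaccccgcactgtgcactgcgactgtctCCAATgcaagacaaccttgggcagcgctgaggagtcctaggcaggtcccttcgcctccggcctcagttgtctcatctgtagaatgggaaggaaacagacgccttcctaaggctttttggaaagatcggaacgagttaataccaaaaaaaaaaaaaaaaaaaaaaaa

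Srebf2, whose product SREBP-2 mainly drives cholesterol synthesis, had 144 and 157 CPM at 79 weeks, against 153 and 138 CPM at 7 weeks, and the ages overlapped. Its 95% interval ran from 0.928-fold to 1.15-fold, which lies wholly below that of Srebf1. The within-library ratio of Srebf1 to Srebf2 counts was 0.578 and 0.543 at 79 weeks, against 0.305 and 0.409 at 7 weeks, and library scaling does not enter this ratio. Scap, the escort of the SREBPs, had 106 and 107 CPM at 79 weeks, against 111 and 109 CPM at 7 weeks. The ages did not overlap, by a small gap, and its 95% interval ran from 0.894-fold to 1.06-fold. Its log2 fold change was -0.04, and 0.01 with library size alone.

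The Insig proteins hold the SREBPs in the endoplasmic reticulum. Insig1, itself switched on by SREBPs, had 93.1 and 82.1 CPM at 79 weeks, against 65.7 and 73.9 CPM at 7 weeks. The ages did not overlap, and Insig1 missed the threshold in edgeR (log2 fold change 0.32, SE 0.09, adjusted p = 0.0592). DESeq2 called it higher (adjusted p = 0.0352), as did edgeR with robust dispersion estimates (0.0342) or library size alone (0.0391). Without 79-week replicate 1 its log2 fold change was 0.23 (adjusted p = 0.129), and without 79-week replicate 2 it was 0.41 (adjusted p = 0.00341). Insig2 had 42.2 and 45.2 CPM at 79 weeks, against 45.7 and 50.3 CPM at 7 weeks (log2 fold change -0.14, adjusted p = 0.339). The ratio of Insig1 to Insig2 counts was 2.21 and 1.82 at 79 weeks, against 1.44 and 1.47 at 7 weeks.

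Of the LXR genes, Nr1h3 rose and Nr1h2 was not called. Nr1h3 encodes LXR alpha, the form of macrophages and liver, and had 14.8 and 16.8 CPM at 79 weeks, against 10.5 and 8.83 CPM at 7 weeks. Both 79-week libraries were above both 7-week libraries, on 285 and 388 counts at 79 weeks and 168 and 183 counts at 7 weeks. The rise was 1.64-fold (log2 fold change 0.71, SE 0.14, adjusted p = 0.0247), with a 95% interval from 1.31-fold to 2.06-fold. The call held without either 79-week library (adjusted p = 0.00117 without replicate 1 and 0.0125 without replicate 2) and was lost without 7-week replicate 1 (0.83 on the log2 scale, adjusted p = 0.142) or replicate 2 (0.59, adjusted p = 0.153). DESeq2 did not call it with any library left out (adjusted p from 0.209 to 0.744). Nr1h2, which encodes the widely expressed LXR beta, averaged 81.5 ± 1.15 CPM at 79 weeks and 76.8 ± 5.57 CPM at 7 weeks, and the ages overlapped. The ratio of Nr1h3 to Nr1h2 counts was 0.183 and 0.204 at 79 weeks, against 0.13 and 0.121 at 7 weeks. In the RefSeq annotation Nr1h3 overlaps Acp2 slightly, which averaged 82.7 ± 1.54 CPM at 79 weeks and 87.8 ± 4.75 CPM at 7 weeks. Microglia, as macrophages, are a cell type in which Nr1h3 is known, and the part of their higher markers in this rise was not tested. The 250 bases before the first of 2 listed starts of Nr1h3 are shown for the same reason as for Apoe. They held none of the 5 letter patterns searched.
Nr1h3, chr2:91195117-91195366, minus strand: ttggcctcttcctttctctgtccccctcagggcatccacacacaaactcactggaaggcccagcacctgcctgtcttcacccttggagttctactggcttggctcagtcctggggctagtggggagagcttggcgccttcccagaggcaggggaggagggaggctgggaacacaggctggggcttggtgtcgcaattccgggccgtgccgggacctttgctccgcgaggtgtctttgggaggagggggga

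**Figure D4:**
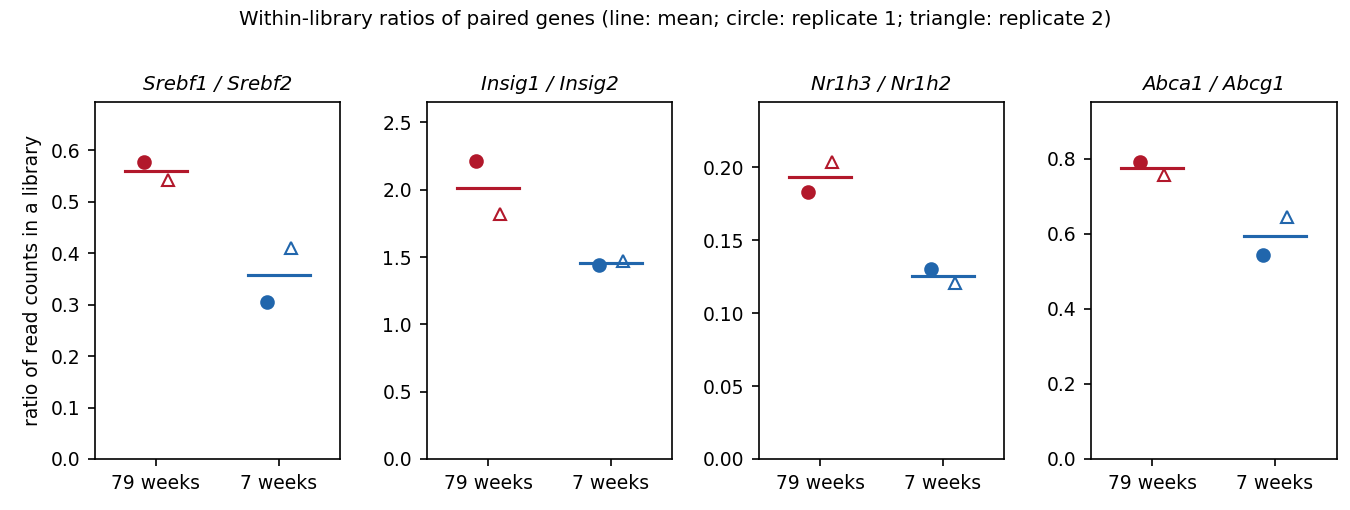
Ratio of read counts of paired cholesterol genes within each library, at 79 and 7 weeks, with a line at the mean of each age. In all 4 pairs both 79-week ratios lie above both 7-week ratios, such as 0.578 and 0.543 at 79 weeks, against 0.305 and 0.409 at 7 weeks, for Srebf1 over Srebf2. In each pair the gene with the larger log2 fold change is on top.

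For each of these 4 ratios the ages did not overlap. The gene with the larger log2 fold change was on top in each pair, so the common direction restates the values of the members. How often pairs of any genes lack overlap was not measured, and 57.7% of single tested genes had none. The exact two-sided permutation test over the 4 libraries gave p = 0.333 for each, raw and adjusted over the 4 ratios, which is the smallest p that 2 against 2 libraries allow. The log2 differences of the ratios between ages were 0.67 for Srebf1 to Srebf2, 0.62 for Nr1h3 to Nr1h2, 0.46 for Insig1 to Insig2 and 0.39 for Abca1 to Abcg1.

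Taken by role, synthesis had 0 genes higher and 1 lower of 17 with counts, uptake, efflux and handling 1 higher and 0 lower of 7, and regulators 2 higher and 0 lower of 7. The median log2 fold changes were -0.03 for synthesis, 0.05 for uptake, efflux and handling and 0.09 for regulators, against 0.01 over all tested genes. With library size alone that of synthesis was 0.03, where the median of all genes was 0.06. Among regulators the median became 0.16 when 7-week replicate 1 was left out and 0.01 when 7-week replicate 2 was. That of uptake, efflux and handling became 0.12 with 79-week replicate 1 left out and -0.04 with 79-week replicate 2 left out. The medians of the 3 roles were not tested against each other.

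**Figure D5:**
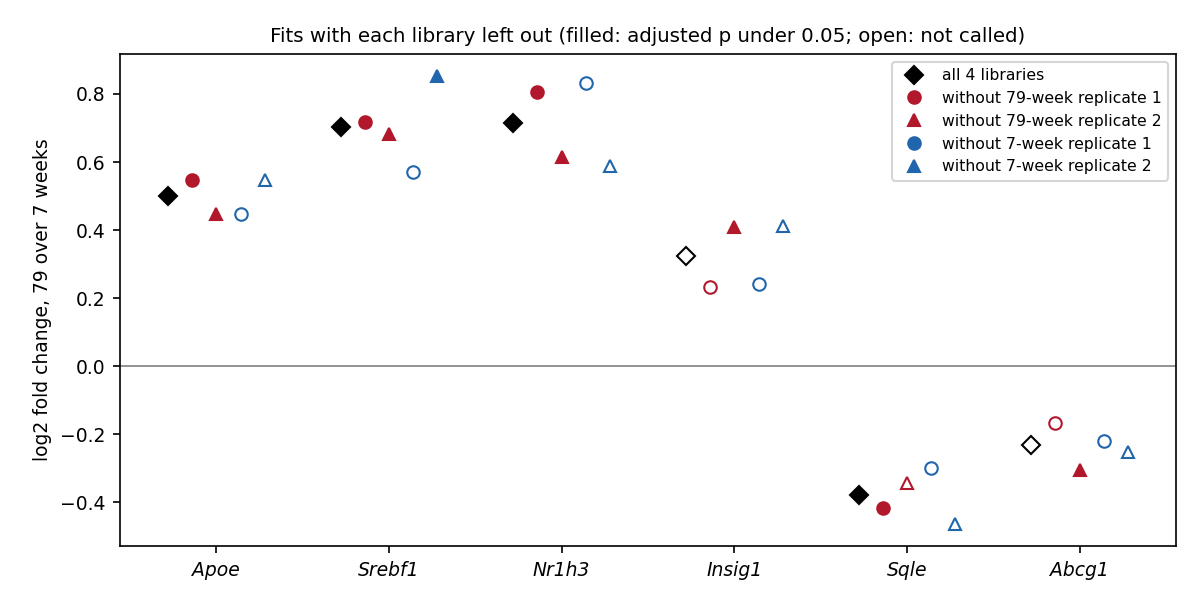
Log2 fold change, 79 weeks over 7 weeks, of 6 cholesterol genes in edgeR with all 4 libraries and with each library left out, filled where the adjusted p was under 0.05. Every value keeps its sign, and Apoe stays between 0.45 and 0.55, while without 7-week replicate 1 none of the 6 is called.

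Other genes of these pathways were covered by 6 further lists with 64 genes, of which 60 were tested, 5 rose, 2 fell and 53 were not called, against the same background of 4.17% higher and 4.68% lower. Lipid carriers and sterol transfer genes held 3 of the 5 rises, out of 16 genes tested. Stard5, a sterol-binding transfer protein, had 31.7 and 38.9 CPM at 79 weeks, against 20.3 and 21.1 CPM at 7 weeks, and rose 1.70-fold (adjusted p = 0.0118). Clu, a glial apolipoprotein also called apolipoprotein J, had 692 and 574 CPM at 79 weeks, against 466 and 450 CPM at 7 weeks, and rose 1.38-fold (adjusted p = 0.0238). Apod, a small lipid carrier, had 250.4 and 238 CPM at 79 weeks, against 173 and 188 CPM at 7 weeks, and rose 1.35-fold (adjusted p = 0.00936). All 3 were above the 7-week range in both 79-week libraries, as Apoe was. Clu was highest in 79-week replicate 1, whose choroid plexus markers stood apart, and without it the log2 fold change was 0.33 (adjusted p = 0.00486), against 0.47 with all libraries. The other 13 genes of that list were not called, among them Apoc1, an apolipoprotein (adjusted p = 0.0552), and Pltp, a phospholipid transfer protein (0.111). Lcat, which esterifies cholesterol on particles, averaged 69.8 ± 3.89 CPM at 79 weeks and 81.8 ± 7.44 CPM at 7 weeks (adjusted p = 0.122).

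Among 9 tested genes of uptake and lysosomal handling 1 rose, 0 fell and 8 were not called. The rise was that of Mylip, a ubiquitin ligase that degrades lipoprotein receptors. Mylip had 27.1 and 27.0 CPM at 79 weeks, against 16.6 and 20.6 CPM at 7 weeks, and rose 1.45-fold (adjusted p = 0.034). Both 79-week libraries were above both 7-week libraries.

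Of 20 further genes of SREBP control and targets 1 rose, 2 fell and 17 were not called. Fasn, fatty acid synthase, had 302 and 319 CPM at 79 weeks, against 311 and 340 CPM at 7 weeks. Its 95% interval ran from 0.861-fold to 1.06-fold. Scd1, a fatty acid desaturase, had an interval from 0.934-fold to 1.13-fold, and Acaca, which makes malonyl-CoA, from 0.845-fold to 1.08-fold. Acly, which makes cytosolic acetyl-CoA, had 205 and 195 CPM at 79 weeks, against 183 and 192 CPM at 7 weeks. Its ages did not overlap, and it was not called (log2 fold change 0.09, adjusted p = 0.319). Elovl6, a fatty acid elongase, had 84.3 and 84.2 CPM at 79 weeks, against 117 and 103 CPM at 7 weeks, and fell by 0.38 on the log2 scale (adjusted p = 0.0202). Rnf139, a sterol-sensing ubiquitin ligase, had 23.8 and 21.9 CPM at 79 weeks, against 28.9 and 32.3 CPM at 7 weeks, and fell by 0.42 on the log2 scale (adjusted p = 0.039). Tmem97, a sterol-responsive membrane protein, had 12.2 and 12.2 CPM at 79 weeks, against 7.29 and 8.45 CPM at 7 weeks, and rose 1.55-fold (adjusted p = 0.0402). The proteases Mbtps1 and Mbtps2, which release the SREBPs, were not called, with log2 fold changes of 0.07 and 0.11.

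The other 3 lists held 0 called genes in edgeR: 6 enzymes of isoprenoid branches, 5 of storage and oxysterols and 4 LXR partner genes, with 1 of each list at an unadjusted p under 0.05. These were Dhdds, which starts dolichol synthesis (log2 fold change -0.24, adjusted p = 0.0813), the sterol hydroxylase gene Cyp27a1 (0.32, adjusted p = 0.0861) and the coactivator gene Ncoa1 (-0.16, adjusted p = 0.0941). Over all 6 lists, the 7 calls were lost in edgeR without 7-week replicate 1 (adjusted p from 0.117 for Apod to 0.262 for Tmem97), and without 7-week replicate 2 all but that of Apod (0.0477) were. With all 4 libraries DESeq2 did not call Tmem97 (adjusted p = 0.0761) or Rnf139 (0.0575). Soat2, Ch25h, Lrp2 and Rxrg were under the low-count filter and were not tested.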

How the data were processed

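Per the labels' protocols, RNA was isolated with Trizol and the Universal Plus mRNA-Seq kit was used. The authors deposited 1 table of raw counts for each library, with Ensembl genes as rows; cutadapt, STAR, HTSeq and the build mm9 are named in the submitters' processing notes without versions. Neither the annotation release nor the strand setting is stated there, and they count as not given in the sources used here. Reads without a gene, 18.7% to 20.4% of each library, aligned to several places (8.02% to 8.25%) or ambiguous between genes (0.696% to 0.766%) stayed out of all totals.

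Symbols came from a table of identifiers, which matched 32919 of 37991. In R 4.3.3, filterByExpr of edgeR 4.0.16 (minimum count 10, minimum total 15) kept 15292 genes. Counts were scaled by TMM, and ages were compared by the quasi-likelihood test without covariates (79 over 7 weeks). Adjustment was Benjamini-Hochberg over every tested gene, at 0.05. The fit was run on simulated counts with the same dispersion for all genes and both ages and no outlying library. That run does not cover the unequal replicates given below. Standard errors and 95% intervals are from the fit. Levels are TMM-scaled CPM, as mean ± SD over 2 libraries, and are not scaled by gene length, so they are compared within a gene only. Replicates differed beyond sampling noise (chi-square per degree of freedom 18.1 at 79 weeks and 6.32 at 7 weeks). Promoter sequences and overlaps are from RefSeq, GRCm38.p6, another build than that of the counts. DESeq2 1.42.0, limma-voom (limma 3.58.1), other scalings and filters, robust dispersion, a replicate block and each library left out were alternatives. A crossed block and DESeq2 with each library left out were added after the data were seen. The members, lists, motifs and tests were chosen with earlier results of these data known. Named were all members and, of the further lists, called genes (up to 4 per list and direction). Uncalled genes of those lists were named after their values were seen.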

Additional observations from a re-analysis of the deposited data

How the results depend on the processing

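With each library left out, in edgeR or DESeq2, the number of members called higher ran from 0 to 4 and lower from 0 to 1, and of other pathway genes from 0 to 7 higher and 0 to 5 lower. Over all genes it ran from 0 to 1360 higher and 0 to 1065 lower. In edgeR alone, medians ran from -0.077 to -0.011 for synthesis, from -0.0072 to 0.056 for the mevalonate arm, from -0.038 to 0.12 for uptake, efflux and handling and from 0.010 to 0.16 for regulators. Members that turned sign had log2 fold changes from -0.044 to 0.25 (Mvk), -0.044 to 0.059 (Pmvk), -0.11 to 0.24 (Idi1), -0.12 to 0.050 (Fdps), -0.0034 to 0.18 (Hsd17b7), -0.063 to 0.079 (Lrp1), -0.022 to 0.34 (Soat1), -0.041 to 0.12 (Cyp46a1) and -0.030 to 0.12 (Srebf2); none of these was called with all 4 libraries.

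With library size alone, 0 members were called lower and 1 other pathway gene, medians were 0.027 (synthesis), 0.13 (mevalonate arm), -0.10 (sterol arm) and 0.14 (regulators), and Fdps and Scap turned to 0.027 and 0.013. Under that scaling the median of all genes was 0.06, against 0.01, and 65.1% of calls were higher, against 47.1%. Members called lower numbered 0 with upper-quartile scaling, DESeq2 and limma-voom, and 2 with robust dispersion, the crossed block and no low-count filter. DESeq2 called 1 other pathway gene lower, and limma-voom gave the mevalonate arm a median of 0.049. Without the filter, 1602 genes were called higher and 1449 lower, with 8 and 4 among other pathway genes. With all 4 libraries Apoe, Srebf1 and Nr1h3 were called under each alternative.

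Same-numbered libraries did not deviate together (Pearson r = -0.106 across genes), so the numbers are not read as pairs. The replicate block called 670 genes higher and 726 lower, with 3 members higher and 1 lower and the same 4 names, and Tmem97 missed the threshold (adjusted p = 0.0504). The crossed block called 1010 and 1004. Of 558 member values under alternatives, 498 kept direction and side of the threshold, 30 turned sign, 20 lost a call and 10 gained one. With all 4 libraries 27 of the 31 members were not called, so most of the 498 are values that stayed uncalled. The 498 thus do not measure how stable the 4 calls are, and the 20 lost calls all belong to those 4 members. The causes were not tested. Leaving out 1 library leaves a lone sample assumed to vary like the other age. With 2 libraries per age, changes well under 1.5-fold are at the limit of what is called.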

Other observations

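The 2 nearest protein-coding genes without overlap on each side of the 4 called members were looked up in the RefSeq annotation, after the members' values were seen. Of the 16 neighbours 15 were tested, 0 rose and 2 fell, against 4.17% higher and 4.68% lower over all tested genes. Both falls lie on one side of Nr1h3: Mybpc3, which encodes a sarcomere protein best known from heart muscle, had 40.4 and 33.96 CPM at 79 weeks, against 101.9 and 78.6 CPM at 7 weeks (log2 fold change -1.28, adjusted p = 0.00471). Madd had 288 and 296 CPM at 79 weeks, against 358 and 332 CPM at 7 weeks (log2 fold change -0.24, adjusted p = 0.0448). Leaving out 7-week replicate 1 ended the edgeR call of Mybpc3 (-1.09, adjusted p = 0.0879). Madd was lost with library size alone (0.0826), upper-quartile scaling (0.052), and without 79-week replicate 1 (0.0758), 7-week replicate 1 (0.252) or 7-week replicate 2 (0.0911). Ddb2 on the other side was not called (log2 fold change 0.35, adjusted p = 0.0638).

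Beside Apoe, the apolipoprotein gene Apoc1 had 1.04 and 1.56 CPM at 79 weeks, against 0.436 and 0.338 CPM at 7 weeks, on 20 and 36 counts at 79 weeks and 7 and 7 counts at 7 weeks, and missed the threshold (adjusted p = 0.0552). Tomm40, on the other side of Apoe, had 57.6 and 57.4 CPM at 79 weeks, against 63.4 and 61.1 CPM at 7 weeks, and was not called (adjusted p = 0.315).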
